A study of Mus musculus with 12 samples.

Results

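The genes examined were 9 integrin chains that leukocytes use to enter and stay in tissue or to activate TGF-beta: Itga4, Itgb7, Itgb1, Itgae, Itgal, Itgb2, Itgav, Itgb8 and Itga6. They were taken by gene symbol from a table of 36222 genes, and each symbol matched 1 identifier. Their transcript levels come from RNA-seq of mouse regulatory T cells (Treg), with 12 libraries in 4 groups of 3. Treg were sorted from spleen CD4+ T cells by YFP, which in these animals is made together with Cre from the Foxp3 gene. WT animals carried Foxp3-YFP-Cre alone, and cKO animals carried the same Cre with a floxed Ikzf1 gene, which encodes the transcription factor Ikaros. All groups therefore carried the Foxp3-driven Cre, and Ikzf1 was deleted only where Foxp3 is or was active. The animals were on a B6 background and, for the ex vivo comparison, 6 to 8 weeks old. Ex vivo Treg were lysed without culture, and stimulated Treg were kept for 4 h on antibodies to CD3 and CD28 fixed to the plate, each at 1 µg/ml. No group was cultured without antibodies, so culture and receptor stimulation cannot be told apart.

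An integrin is a pair of 1 alpha and 1 beta chain in the cell membrane, and the pairing decides which ligand is bound. The alpha-4 chain (Itga4) pairs with beta-7 (Itgb7) into the receptor for MAdCAM-1 on gut venules, and with beta-1 (Itgb1) into VLA-4, the receptor for VCAM-1 and fibronectin. The alpha-E chain (Itgae, CD103) pairs with beta-7 and binds E-cadherin on epithelium, and alpha-L (Itgal) with beta-2 (Itgb2) forms LFA-1, which binds ICAM-1 at the synapse and on endothelium. The pair alpha-V and beta-8 (Itgav, Itgb8) pulls on the latent TGF-beta that Treg hold on their surface with GARP and so frees the active cytokine. The alpha-6 chain (Itga6) binds laminin of basement membranes and in T cells pairs with beta-1.

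Between 8208659 and 20247649 reads were assigned to genes per library. Levels are given below as scaled TPM, the deposited TPM (transcript abundance per length, summing to 1000000 in each library) divided by a factor per library (0.7323 to 1.21) that sets the bulk of the 13318 tested genes level. One gene, Gm10800, took 17.65% to 55.88% of the deposited TPM, with the highest share in cKO stimulated library 3, which was also the shallowest. WT ex vivo library 3 stood apart in Xist (179 TPM, against at most 1.36 in the other 11) and in the Y-linked Ddx3y (0.097 TPM, against at least 14.7). This is the pattern of a female animal, and the other 11 libraries showed that of males. Only the WT ex vivo group mixed the patterns, and the part of sex in the results was not tested. Calls below that change without this library are given both ways, or with how many fits with a library left out kept them. Ikzf1 averaged 110 scaled TPM in WT and 37.9 in cKO ex vivo, and 68.9 and 27.8 after stimulation, and limma called it lower in cKO in both states (Benjamini-Hochberg adjusted p = 5.45e-05 and 0.000161). All 9 markers of Treg and T cells were detected in each group.

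Of these chains, 4 were called between genotypes (adjusted p under 0.05) in 1 of the 2 states. The sequence upstream of them is shown because Ikaros, the deleted protein, binds DNA at short words with the core GGAA. These were searched as AGGAA and GGGAA. Each line holds the 250 bases before the annotated start of the gene, from the RefSeq promoter table (GRCm38.p6), written 5′ to 3′ on the strand of the gene. Capitals mark every AGGAA or GGGAA, or TTCCT or TTCCC where the word lies on the other strand. Each sequence matched the NCBIM37 genome (mm9, the build of the data) exactly once, at chr8:131209304-131209553 (plus strand) for Itgb1, chr2:83564304-83564553 (plus) for Itgav, chr2:79095333-79095582 (plus) for Itga4 and chr15:102062367-102062616 (minus) for Itgb7.
Itgb1: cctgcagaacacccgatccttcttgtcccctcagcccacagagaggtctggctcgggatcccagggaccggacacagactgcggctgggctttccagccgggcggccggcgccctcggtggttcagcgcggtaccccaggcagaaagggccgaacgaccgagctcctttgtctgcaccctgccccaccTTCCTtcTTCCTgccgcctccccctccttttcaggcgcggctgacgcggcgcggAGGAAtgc
Itgav: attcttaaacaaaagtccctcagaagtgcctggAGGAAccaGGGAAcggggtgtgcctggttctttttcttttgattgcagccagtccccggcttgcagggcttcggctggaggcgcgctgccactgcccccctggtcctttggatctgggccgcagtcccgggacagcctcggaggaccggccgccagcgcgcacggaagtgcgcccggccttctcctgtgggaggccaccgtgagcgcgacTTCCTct
Itga4: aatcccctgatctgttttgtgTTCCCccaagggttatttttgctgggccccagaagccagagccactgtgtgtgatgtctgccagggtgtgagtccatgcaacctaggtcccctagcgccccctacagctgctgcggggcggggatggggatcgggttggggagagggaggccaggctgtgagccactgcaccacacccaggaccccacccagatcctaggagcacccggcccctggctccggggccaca
Itgb7: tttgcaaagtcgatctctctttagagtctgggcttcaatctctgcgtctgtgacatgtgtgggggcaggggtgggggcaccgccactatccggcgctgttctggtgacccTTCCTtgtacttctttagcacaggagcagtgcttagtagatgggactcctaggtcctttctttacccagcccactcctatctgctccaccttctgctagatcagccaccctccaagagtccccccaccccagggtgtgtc

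The Itgb1 window held 3 copies of AGGAA and none of GGGAA, and the Itgav window held 2 copies of AGGAA and 1 of GGGAA. The Itga4 window held 1 GGGAA, and the Itgb7 window held 1 AGGAA. None of these matches shared a base with another. Of 32851 promoter windows of the same length, 60.3% held AGGAA, 56.2% held GGGAA and 82.3% held at least 1 of them on either strand, so a match was the usual case. The table gave a promoter for 5 of the 9 chains. The fifth, Itgb8, held 1 GGGAA. Its window, at chr12:120476750-120476999 (minus strand), lies inside the span of the gene given below and not before its start.

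In WT Treg ex vivo the chains spanned a range from 180 scaled TPM for Itgb7 to 7.39 for Itgb8, a comparison that is per transcript length. Itgb7, Itgb2 (166) and Itgal (156) led, and the libraries of neighbours among these 3 overlapped. Itgb1 (93.9) and Itga4 (81.2) followed and overlapped each other. Itga6 (44) stood alone, Itgav (23.5) and Itgae (14.5) overlapped, and Itgb8 was lowest. As a yardstick for background, 1555 odorant and vomeronasal receptor genes, which Treg do not use, had a median of 0.742 in WT ex vivo and 1.19 in cKO stimulated libraries, and a 95th percentile of at most 2.32. Every chain lay above that percentile in every library. The order differed in the other groups. In cKO ex vivo libraries Itgal (176), Itgb2 (163), Itgb1 (154) and Itgb7 (143) formed a group in which neighbours overlapped, and in cKO stimulated libraries Itgb1 led with 64.5 and Itgae, at 8.12, was last.

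**Figure D1:**
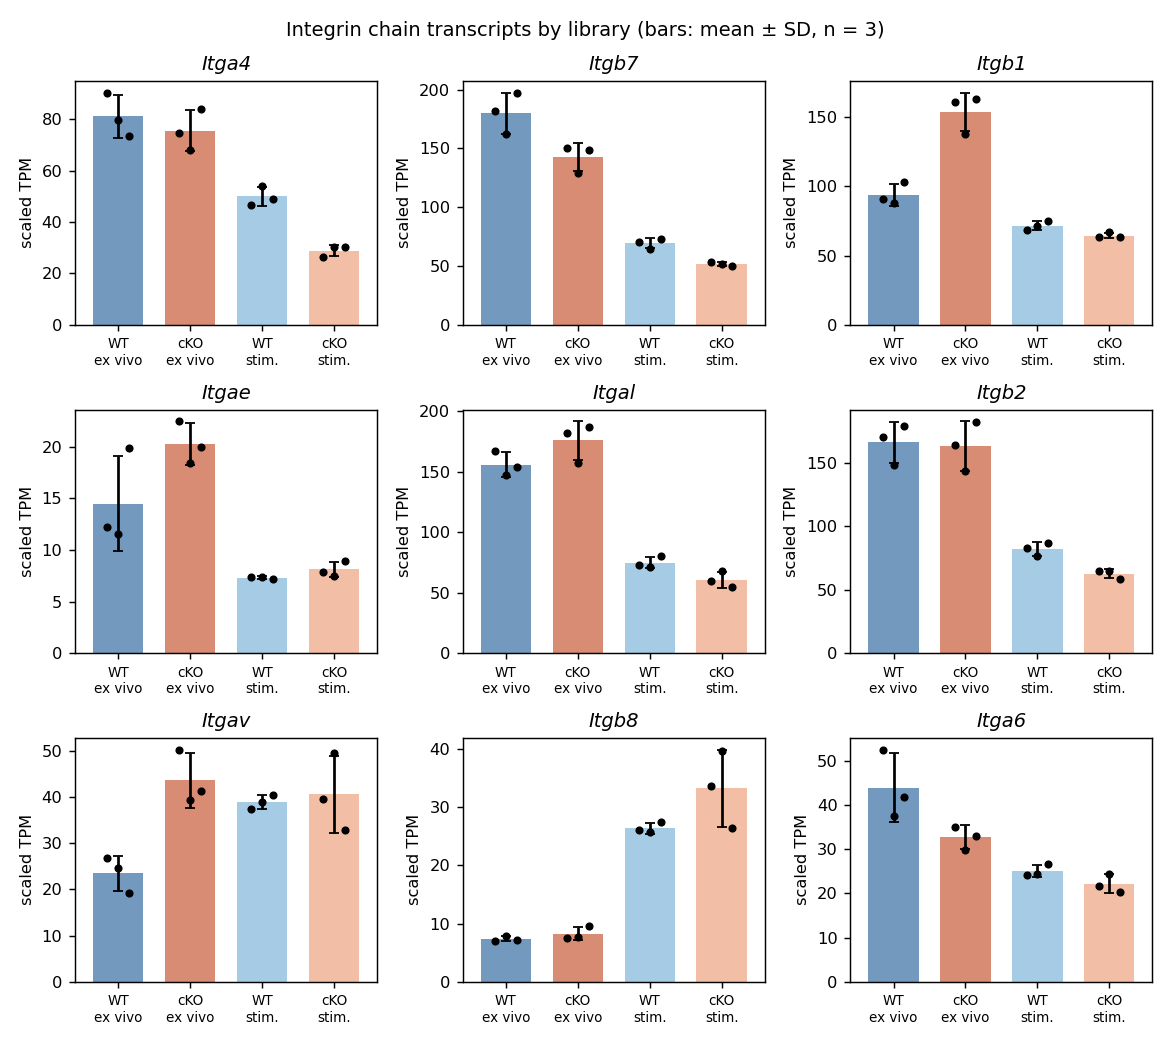
Scaled TPM (linear axis from 0) of the 9 integrin chains in the 4 groups; bars are means, error bars SD over 3 libraries, and points single libraries. Itgb1 and Itgav stood higher in cKO than WT ex vivo, Itgb8 was high in both stimulated groups, and most other chains were lower after stimulation.

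The first question was how loss of Ikaros changed the chains in Treg taken directly from the animal. Of the 9 chains, 2 were called in cKO against WT (adjusted p under 0.05 in limma over 13318 genes), both higher, where 5.29% of all tested genes were called, 3.62% higher and 1.67% lower. These were Itgb1 and Itgav. The median log2 change of the 9 chains was 0.14, and that of all tested genes was -0.01. WT and cKO libraries did not overlap for 4 chains (2 higher, 2 lower in cKO). Among all genes 21.5% did not overlap, 11.6% higher and 9.96% lower.

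Itgb1, at chr8:131209554-131257100, encodes the beta-1 chain shared by VLA-4, the fibronectin receptor VLA-5 and the laminin receptor. It measured 90.7, 87.8 and 103 scaled TPM in the 3 WT ex vivo libraries. The cKO ex vivo libraries measured 161, 138 and 163, all above WT. The change was 1.64-fold (log2 0.70, SE 0.09, limma adjusted p = 0.00173, n = 3 per group). Without WT library 3 it was 0.77 with an adjusted p of 0.00252.

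Itgav, at chr2:83564554-83647073, encodes the alpha-V chain that pairs with beta-8 and also with beta-1, beta-3 and beta-5. WT ex vivo libraries held 26.7, 24.6 and 19.3 scaled TPM. The cKO libraries held 50.3, 39.3 and 41.3. Again no cKO library fell into the WT range, and the change was 1.86-fold (log2 0.87, SE 0.16, limma adjusted p = 0.00979). It stayed under 0.05 with each of the 12 libraries left out, at most 0.0484 without cKO library 1 and 0.037 without WT library 3.

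Both calls depended on the genes the library factors were computed on. With genes from 1 TPM tested and the factors recomputed on them, the log2 changes were 0.69 for Itgb1 and 0.86 for Itgav, and the limma adjusted p rose to 0.444 and 0.421. With the same genes tested and the factors kept, an alternative chosen after seeing the data, the adjusted p was 0.003 for Itgb1 and 0.0196 for Itgav.

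The gut-homing chains did not pass the test ex vivo. Itgb7, at chr15:102046426-102062366, measured 182, 162 and 197 scaled TPM in WT and 150, 129 and 149 in cKO. All cKO libraries were below all WT libraries, but the log2 change of -0.33 (SE 0.10) had a limma adjusted p of 0.0752. Itga4, at chr2:79095583-79173280, gave 90.4, 79.6 and 73.7 in WT and 74.5, 68 and 83.9 in cKO, ranges that overlapped (log2 -0.11, 95% confidence interval -0.34 to 0.13).

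Itgae, at chr11:72904085-72960948, is where the library that stands apart mattered. WT ex vivo libraries held 12.2, 11.6 and 19.9 scaled TPM, the last being library 3. The cKO libraries held 22.5, 18.4 and 20. With all libraries the log2 change was 0.49 (SE 0.17, limma adjusted p = 0.138), and voom on recovered reads called it (0.51, adjusted p = 0.0236). Without WT library 3 it was 0.72, with a limma adjusted p of 0.00735.

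Itga6, at chr2:71583673-71696473, was the other chain without overlap ex vivo. It held 52.6, 37.5 and 41.9 scaled TPM in WT and 35.1, 29.8 and 33.1 in cKO, a log2 change of -0.41 (SE 0.12) with a limma adjusted p of 0.0887. It was called under quantile normalization (0.0183), with voom on recovered reads (0.0369) and without WT library 2 (0.0482). The LFA-1 chains Itgal (chr7:134439774-134478651; 156 and 176 scaled TPM in WT and cKO) and Itgb2 (chr10:76992997-77028453; 166 and 163) overlapped between genotypes. So did Itgb8 (chr12:120396495-120477275), at 7.39 and 8.27, with a log2 difference of 0.14 and an interval of -0.16 to 0.43.

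**Figure D2:**
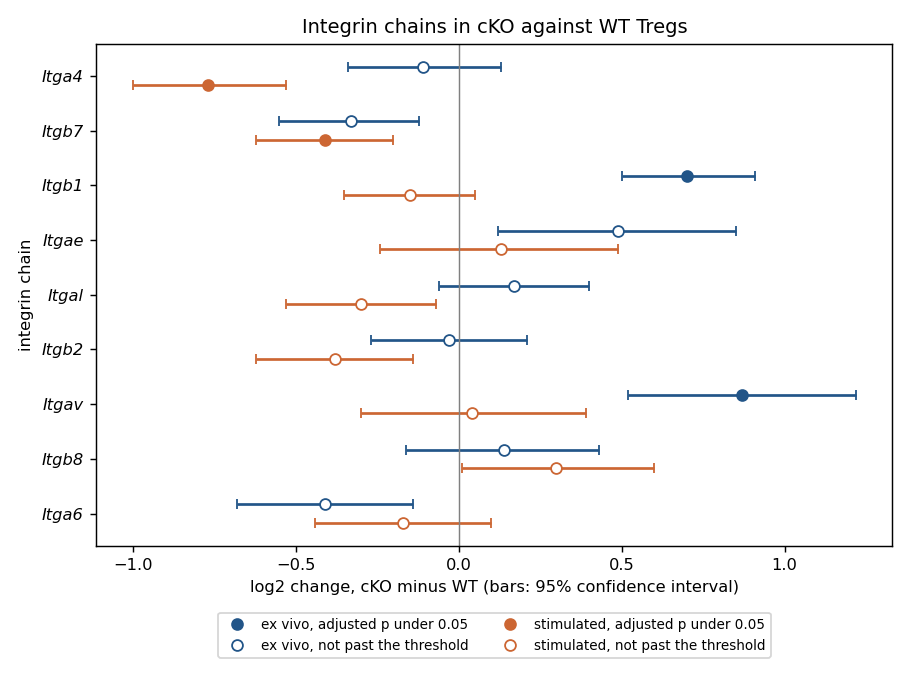
Log2 change of each integrin chain in cKO against WT Treg, ex vivo (blue) and stimulated (orange), with 95% confidence intervals from limma; filled points had an adjusted p under 0.05. Itgb1 and Itgav were filled ex vivo, Itga4 and Itgb7 after stimulation, and no chain in both states.

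After stimulation other chains passed the threshold in the comparison of genotypes. Again 2 of 9 were called, this time both lower in cKO, where 6.93% of all genes were called, 3.63% lower and 3.30% higher. They were Itga4 and Itgb7, the pair that forms the gut-homing receptor. The study named this pair too, so their direction is not taken as independent evidence. The median change of the 9 chains was -0.17, against -0.03 for all genes. The groups did not overlap for 6 chains (5 lower and 1 higher). Among all genes 30.8% did not overlap, 18.0% lower and 12.8% higher.

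Itga4 measured 46.7, 54.2 and 49 scaled TPM in WT stimulated libraries. The cKO stimulated libraries held 26.5, 30.1 and 30.1. Every cKO library was well below every WT library, and cKO held 0.578 times the WT mean (log2 -0.77, SE 0.11, limma adjusted p = 0.00189). The adjusted p was at most 0.0127 with any 1 library left out.

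Itgb7 measured 70.4, 64.4 and 73.2 scaled TPM in WT stimulated libraries and 53.5, 51.6 and 50.4 in cKO stimulated libraries. The groups were apart, at 0.747 times the WT mean (log2 -0.41, SE 0.10, limma adjusted p = 0.0271). Ex vivo the log2 change was -0.33. The difference between the 2 states, -0.08 (interval -0.38 to 0.22), was not called (limma adjusted p = 0.827). The stimulated call of Itgb7 was the weaker of the pair. It held in 7 of 12 fits that left out 1 library, and was lost without any 1 of WT stimulated libraries 1, 2 and 3 or of cKO stimulated libraries 1 and 3 (adjusted p up to 0.12). With genes from 1 TPM and recomputed factors, the log2 changes were -1.07 for Itga4 and -0.71 for Itgb7, with limma adjusted p of 0.0912 and 0.282. With those genes and the factors kept, the adjusted p was 0.0031 for Itga4 and 0.0503 for Itgb7.

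Markers of the T cells themselves also differed after stimulation, and their part in these results was not tested. Of 9 listed for Treg and T cells, limma called 2 lower and 2 higher in cKO, against 3.63% and 3.30% of all genes. Lower were the T cell receptor genes Trac (762 to 497 scaled TPM; log2 -0.63, adjusted p = 0.0147) and Cd3d (101 to 65.4; -0.61, adjusted p = 0.0229), and higher were Foxp3 (106 to 210; 0.96, adjusted p = 0.00847) and Il2ra (120 to 212; 0.80, adjusted p = 0.00972). The calls of Trac and Cd3d held in 9 and 8 of 12 fits with a library left out.

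The other chains did not pass. Itgb2 (82 in WT and 62.7 scaled TPM in cKO; log2 -0.38, limma adjusted p = 0.0614) and Itgal (75 and 60.8; log2 -0.30, adjusted p = 0.111) had every cKO library below every WT library. Itgb2 was called in 1 of 13 other settings (limma adjusted p = 0.0233) and in 1 of 12 fits with a library left out (0.0454). Itgb1 differed by -0.15 on the log2 scale (interval -0.35 to 0.05), with 71.6 in WT and 64.5 in cKO. Itgav was near equal, at 38.9 and 40.6 scaled TPM, with a log2 interval of -0.30 to 0.39. Itgb8 held 26.1, 25.8 and 27.5 in WT and 33.6, 39.7 and 26.5 in cKO, an overlap that came from cKO library 3 (log2 0.30, adjusted p = 0.199). Without that library the change was 0.48 with a limma adjusted p of 0.0372. With all libraries, Itgb8 was called in 1 of 13 other settings (limma adjusted p = 0.014). Itgae (7.34 and 8.12) and Itga6 (25.1 and 22.2) were also not called.

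More chains were called for stimulation than for genotype. In WT Treg all 9 chains were called between stimulated and ex vivo cells, 7 lower and 2 higher, where 32.0% of all genes were called, 19.3% lower and 12.7% higher. In cKO Treg 8 were called, 7 lower and 1 higher, where 43.8% of all genes were called, 26.5% lower and 17.3% higher. In WT the libraries did not overlap for any of the 9 chains (7 lower, 2 higher), against 47.5% of all genes (26.3% lower, 21.1% higher), and in cKO for 8 (7 lower, 1 higher), against 53.5% (30.7% lower, 22.8% higher). The median change of the 9 chains was -0.77 in WT and -1.24 in cKO, and that of all genes was 0 and -0.01. The summed level of the 9 Treg and T cell markers moved too, from 3250 to 3620 scaled TPM in WT ex vivo libraries to 2080 to 2240 after stimulation, and from 3300 to 3550 to 1730 to 2330 in cKO. Of these 9, 6 were called lower and 1 higher (Tnfrsf18, 0.79) in WT, and 6 lower and 2 higher (Tnfrsf18, 0.58, and Il2ra, 0.65) in cKO, and their part in the results was not tested. The WT and cKO values come from separate libraries, though the genotype and stimulation comparisons share them.

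The 2 chains that rose in WT Treg were those of the TGF-beta activating pair. Itgb8 went from 7.07, 7.88 and 7.21 scaled TPM ex vivo to 26.1, 25.8 and 27.5, with every stimulated library far above every ex vivo library. This was a 3.58-fold rise (log2 1.71, SE 0.13, limma adjusted p = 9.07e-06). In cKO it went from 7.5, 7.74 and 9.56 to 33.6, 39.7 and 26.5, a 4.03-fold rise (log2 1.88, SE 0.13, adjusted p = 3.61e-06). Both calls held under every alternative tried. The difference between the 2 rises was 0.16 (interval -0.25 to 0.58).

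Itgav rose 1.66-fold in WT, from 23.5 to 38.9 scaled TPM (log2 0.72, SE 0.16, limma adjusted p = 0.00546), with no overlap. In cKO it was 43.6 ex vivo and 40.6 after stimulation, and the libraries overlapped (log2 -0.11, interval -0.46 to 0.23, and 0.32 under quantile normalization). The cKO ex vivo libraries, at 39.3 to 50.3, overlapped the WT stimulated libraries, at 37.4 to 40.4. The difference of the 2 stimulation effects was -0.83 (SE 0.22) with a limma adjusted p of 0.11. It was therefore not called, although reads weighted by voom gave an adjusted p of 0.0185.

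The 7 chains that fell in WT also fell in cKO. Itgb7 fell by 1.36 and 1.44 on the log2 scale in WT and cKO, Itgal by 1.05 and 1.52, Itgb2 by 1.00 and 1.36, Itgae by 0.86 and 1.22, Itga4 by 0.69 and 1.35, Itgb1 by 0.38 and 1.24, and Itga6 by 0.77 and 0.54. The fall was larger in cKO in 6 of these 7 chains, with Itga6 the exception, and this was not counted over all genes. Among all genes 19.3% were called lower in WT and 26.5% in cKO. The median difference between the stimulation effects was -0.36 for the 9 chains, -0.25 for the 9 Treg and T cell markers and -0.04 for all genes. For 1 chain, Itgb1, the difference itself was called, where 1.10% of all genes were called, 0.653% in that direction and 0.451% in the other. Itgb1 lost 0.85 more in cKO than in WT (SE 0.13, limma adjusted p = 0.0136, at most 0.0493 with 1 library left out, 0.508 with genes from 1 TPM and recomputed factors, and 0.0238 with those genes and the factors kept). Itga4 lost 0.66 more (adjusted p = 0.0669), a difference that voom called (-0.68, adjusted p = 0.0321). The fall of Itgb1 in WT was the least stable of the 7, since quantile normalization gave a log2 change of 0.03 in its place, and it was not called on genes from 1 TPM with recomputed factors (adjusted p = 0.137). The fall of Itgb1 in cKO held under every alternative. With TPM as deposited, the falls of Itga4 and Itga6 in WT were not called either (limma adjusted p = 0.108 and 0.114), and with genes from 1 TPM and recomputed factors the rise of Itgav in WT was not (0.398).

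**Figure D3:**
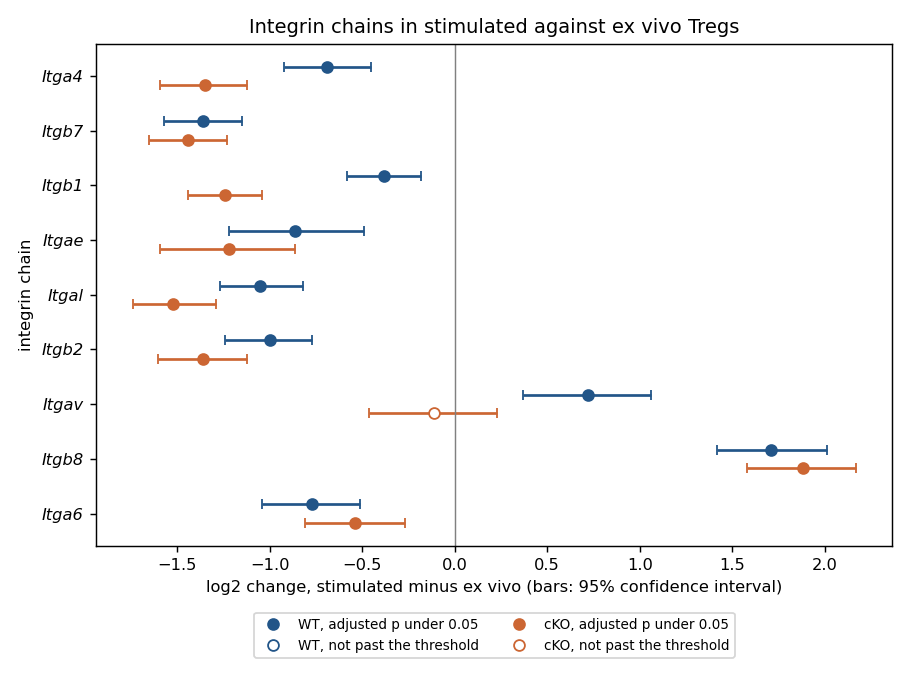
Log2 change of each integrin chain in stimulated against ex vivo Treg of WT (blue) and cKO (orange) animals, with 95% confidence intervals from limma; filled points had an adjusted p under 0.05. Itgb8 rose by 1.71 and 1.88, Itgav was filled in WT and open in cKO, and the other 7 chains fell in both genotypes.

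Ratios of 2 chains within a library do not depend on how libraries are scaled, so they were computed for 5 pairs from the deposited TPM. With 3 libraries against 3, the exact 2-sided permutation test cannot go below p = 0.1, or 0.167 after adjustment over the 20 tests, so none could pass, and the values are given for their separation. The ratio of Itgb7 to Itgb1, the 2 beta chains that compete for alpha-4, had the least spread ex vivo. Its log2 value in WT ex vivo libraries was 1.01, 0.88 and 0.93. In cKO ex vivo libraries it was -0.10, -0.10 and -0.13. WT Treg ex vivo thus held 1.92 Itgb7 transcripts per Itgb1 transcript and cKO Treg 0.928, a log2 difference of -1.05 (exact permutation p = 0.1) against SDs of 0.06 and 0.02. After stimulation the ratio was 0.968 in WT and 0.803 in cKO, a log2 difference of -0.27 without overlap. In WT the log2 ratio was 0.99 lower after stimulation, with a mean of -0.05, close to the cKO ex vivo mean of -0.11.

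The ratio of Itgb8 to Itgav showed the opposite order in the 2 states. Its log2 value in WT ex vivo libraries was -1.92, -1.64 and -1.42, and in cKO ex vivo libraries -2.75, -2.34 and -2.11. After stimulation it was -0.52, -0.60 and -0.55 in WT and -0.24, -0.32 and -0.31 in cKO. The cKO libraries were thus all lower ex vivo (difference -0.74) and all higher after stimulation (0.27), both with an exact permutation p of 0.1. In transcript terms, WT libraries went from 0.317 Itgb8 per Itgav before stimulation to 0.68 after it, and cKO libraries from 0.189 to 0.819.

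Among the alpha chains, the 3 cKO stimulated libraries held more Itgae per Itga4 than the WT stimulated libraries (log2 difference 0.93) and more Itga6 per Itga4 (0.61), again without overlap and with an exact permutation p of 0.1. The LFA-1 chains kept the steadiest ratio. Itgal to Itgb2 had means between -0.13 and 0.11 on the log2 scale over the 4 groups, although both chains were lower after stimulation by 1.00 to 1.52. Ex vivo this ratio was still higher in every cKO library than in every WT library (log2 difference 0.2, exact permutation p = 0.1).

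**Figure D4:**
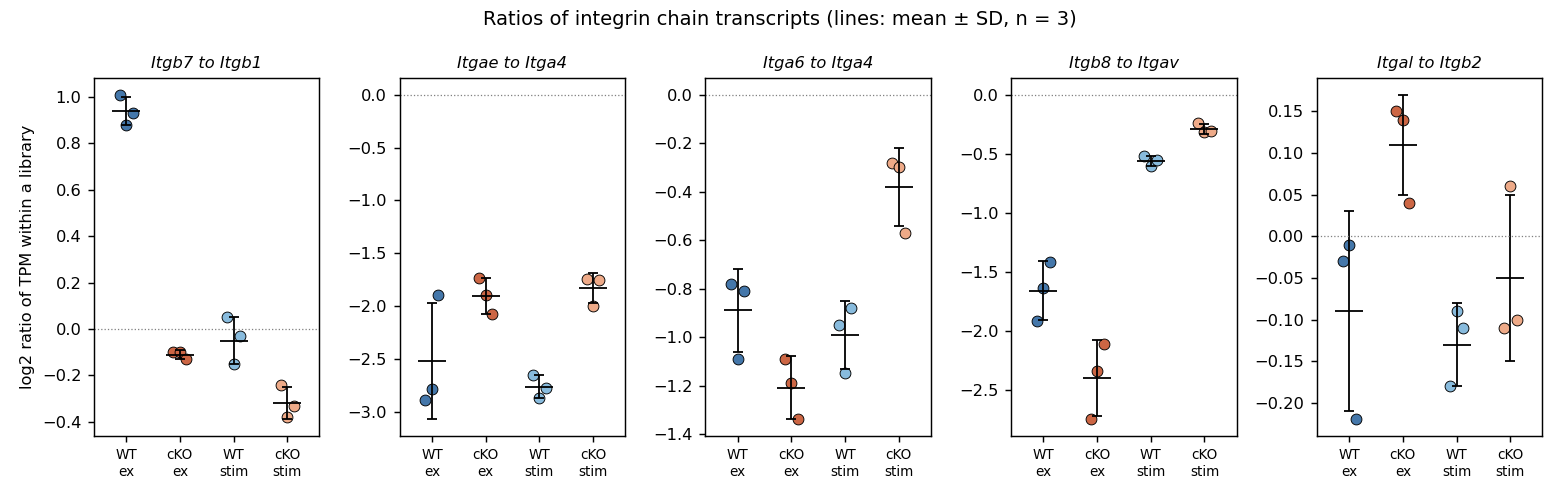
Log2 ratio of 2 integrin chains within each library, from deposited TPM, by group; lines are means and error bars SD over 3 libraries, and the 5 panels have their own axes. Itgb7 to Itgb1 was near 0.94 in WT ex vivo libraries and between -0.32 and -0.05 on average in the other 3 groups.

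Over the 12 libraries the chains fell into sets that moved alike, given here as description since the 12 points share groups. Itgb2 had a Pearson r of 0.99 with Itgal and with Itgb7, and Itgb8 had -0.97 with Itgb7. Itgav was least like the others (0.08 with Itgb1, 0.47 with Itgb8). Among all tested genes, the 2 most like Itga4 were Hmha1 (0.99) and Stk10 (0.984), a kinase of lymphocytes. For Itgb7 they were Sept1 (0.994) and Bud31 (0.993), for Itgb1 Fam110a and the tetraspanin Cd82 (both 0.984), and for Itgae Phlda1 (0.974) and Pola1 (0.973). Itgal went with the actin cross-linker Flna (0.994) and Slc9a9 (0.993), and Itgb2 with the small GTPase Rac2 and the T cell receptor adaptor Lat (both 0.994). Itgav went with the transporter Abcc1 (0.966) and Tnfsf8 (0.954), Itgb8 with Irgm2 and the adhesion molecule Alcam (both 0.99), and Itga6 with Gimap6 (0.986) and Thoc1 (0.982).

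The remaining integrin genes were mostly low. Of 18 other chains, 7 reached 5 TPM in some group. Of these 7, Itgb5 and Itga9 reached 5 TPM only in cKO groups and so were tested only because they were high there, and the calls among the 7 are not read against the share over all genes. Ex vivo limma called Itga5 and Itgb5 higher in cKO. Itga5, the alpha chain of the fibronectin receptor with beta-1, rose from 4.66 to 8.55 scaled TPM (log2 0.76, limma adjusted p = 0.00247), and Itgb5, a partner of alpha-V, from 2.8 to 5.29 (0.73, adjusted p = 0.0455). The Itgb5 call held in 1 of 12 fits with a library left out, and without WT ex vivo library 3 its adjusted p was 0.124. After stimulation limma called 2 higher in cKO, Itga5 (7.71 to 12.9; log2 0.68, adjusted p = 0.00312) and Itgb3, another partner of alpha-V (15 to 26.5; 0.79, adjusted p = 0.00541). Itgb3 held 14.6, 13.1 and 12.4 scaled TPM in the WT libraries ex vivo and 17.3, 11.7 and 16.1 after stimulation. In the cKO libraries it held 10.7, 10.7 and 9.61 before and 27.9, 28.2 and 23.4 after. It thus rose on stimulation in cKO (log2 1.28) and was at 0.14 in WT, and the difference of 1.14 was called (limma adjusted p = 0.0192, in 9 of 12 fits with a library left out, and up to 0.662 in other settings). Platelets also use beta-3, and the sum of 4 platelet markers was 8.13 to 11.1 scaled TPM in WT and 9.81 to 17.1 in cKO stimulated libraries. Its part in the Itgb3 result was not tested. In WT Treg limma called Itga5 (log2 0.62) and Itga3 (0.73) higher after stimulation. Itga3 reached 5 TPM only in the stimulated groups, so it was tested only because it was high there.

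Of 11 genes of latent TGF-beta and its release, 10 were in the table and 4 were tested. Ex vivo 2 of the 4 were called, both higher in cKO, against 3.62% of all genes. Mmp14, a membrane metalloprotease, measured 4.52, 4.46 and 3.97 scaled TPM in WT and 13.6, 18.3 and 13.2 in cKO libraries, a 3.49-fold difference (log2 1.58, SE 0.12, limma adjusted p = 5.45e-05) that was called under every alternative. Furin, the convertase that cleaves pro-TGF-beta, went from 22.3 to 36.4 (log2 0.69, adjusted p = 0.00924, 0.559 at most in other settings). After stimulation 1 of 4 was called, higher like 3.30% of all genes. It was Mmp14, at 6.51 in WT and 16.7 in cKO (log2 1.24, adjusted p = 0.000228). Lrrc32, which encodes GARP, was 224 and 222 in WT and cKO ex vivo and rose in WT on stimulation to 337 (log2 0.61, limma adjusted p = 0.0169). Without WT ex vivo library 3 the rise of Lrrc32 was 0.50 and was not called (0.061). In cKO it rose from 222 to 407 (log2 0.87, limma adjusted p = 0.002), a call that held in 12 of 12 fits with a library left out, and the difference of the 2 rises, 0.26, was not called (0.64). Mmp14 also rose in WT on stimulation (0.50).

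Talin, kindlin and Rap1 proteins switch integrins on from inside the cell. Of 28 listed genes of this machinery 20 were tested. Ex vivo 1 of 20 was called, near the 5.29% of all genes called. It was Vcl, the talin-binding vinculin (3.42 to 6.02 scaled TPM; log2 0.67, limma adjusted p = 0.0116). After stimulation 3 of 20 were called, where 6.93% of all genes were called. Vcl was again higher (0.58, adjusted p = 0.0201), and Stk4, the Mst1 kinase downstream of Rap1 (-0.62, adjusted p = 0.0231), and Skap1, an adaptor that joins Rap1 to LFA-1 (-0.45, adjusted p = 0.0193), were lower. In WT Treg 3 of the 20 were called higher and 12 lower after stimulation, against 12.7% and 19.3% of all genes. Without WT ex vivo library 3, 3 of the 12 were not called, Fermt3 (limma adjusted p = 0.0661), Apbb1ip (0.0545) and Sharpin (0.0574). The largest falls were in Rasgrp2, the exchange factor for Rap1 (22.7 to 7.12; log2 -1.53), Flna (144 to 69.9; -1.03) and Cyth1, a regulator of beta-2 integrins (80.8 to 40.3; -0.98). Of 11 integrin ligands 4 were tested. Icam1, the ligand of LFA-1, was higher in cKO ex vivo (21.1 to 27.7; 0.38, adjusted p = 0.0141) and rose in WT on stimulation (0.47), where Icam2 fell (18.2 to 12.3; -0.53, adjusted p = 0.0254). The fall of Icam2 held in 9 of 12 fits with a library left out, and was not called without WT ex vivo library 3 (limma adjusted p = 0.0586). Apart from Mmp14 ex vivo, none of the genotype calls in these 4 lists held under all alternatives.

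Markers of Treg state and of other cells moved with some of these groups, and their part in the results was not tested. In bulk RNA, fewer cells of a type and less RNA per cell cannot be told apart. The summed level of 7 effector Treg markers, of which Itgae is 1, was 303 to 330 scaled TPM in WT and 436 to 488 in cKO ex vivo libraries, and 4 of the 7 were called higher ex vivo (Klrg1, Cd44, Prdm1 and Cxcr3), against 3.62% of all genes. Without WT ex vivo library 3 Cd44 was not called (limma adjusted p = 0.0792). After stimulation the sum was 415 to 478 in WT and 485 to 644 in cKO libraries, and 2 of the 7 were called higher, against 3.30% of all genes. These were Icos (82.8 to 156; log2 0.90, limma adjusted p = 0.00212) and Prdm1 (5.23 to 8.19; 0.56, adjusted p = 0.0275). The difference of stimulation effects was called for 2 of the 7, against 1.10% of all genes. They were Cxcr3 (-0.86, limma adjusted p = 0.0164) and Klrg1 (-0.67, adjusted p = 0.0454). These calls held in 9 and 1 of 12 fits with a library left out. Among markers of resting Treg, Lef1 was at 59.6 scaled TPM in WT and 36.6 in cKO ex vivo, and at 44.7 and 20 after stimulation, and limma called it lower in cKO in both states (adjusted p = 0.00173 and 8.5e-05). Tcf7 was at 425 in both genotypes ex vivo, and at 319 in WT and 130 in cKO after stimulation (limma adjusted p = 0.000255). Its difference of stimulation effects, -1.3, was called (limma adjusted p = 0.0122, in 12 of 12 fits with a library left out). Ccr7, Satb1 and Bach2 were not called in either state. Their log2 differences ran from -0.17 to -0.57 ex vivo and from -0.55 to -0.83 after stimulation, with limma adjusted p of 0.139 to 0.66 and 0.0554 to 0.0707. The sum of 4 B cell markers was 8.62 to 13.5 in WT and 15.3 to 18.7 in cKO ex vivo, and 9.27 to 11.3 and 14 to 21.3 after stimulation. Of these 4, Cd79b alone was tested, at 3.67 in WT and 7.81 in cKO stimulated libraries (limma adjusted p = 0.0283). Summed markers of CD8 T, myeloid, dendritic, NK, platelet and erythroid cells were at most 43.8 scaled TPM in any library. Of these, the myeloid sum did not overlap between stimulated WT (34.4 to 37.3) and cKO libraries (38.2 to 43.8), and Cst3, the 1 myeloid marker tested, was not called (log2 0.07). Of 6 genes known to respond to T cell receptor signals, Egr2, Myc and Tnfrsf9 rose on stimulation in both genotypes, and Cd69, which was already at 388 scaled TPM in WT ex vivo, fell in both. Egr1 went from 137 to 87.3 in WT (log2 -0.58, limma adjusted p = 0.0964) and was not called. In cKO Egr1 was called lower, from 144 to 89.5 (-0.69, limma adjusted p = 0.0404). Its stability with a library left out was not examined. Tnfrsf9 was higher in cKO than WT after stimulation (197 to 381; log2 0.94, limma adjusted p = 0.00634). Nr4a1 was at 1020 in WT and 591 in cKO ex vivo (log2 -0.78, limma adjusted p = 0.0251) and went to 691 in WT (-0.55, adjusted p = 0.0307) and 668 in cKO (0.16, not called). Without WT ex vivo library 3 neither Nr4a1 call was made (0.0828 and 0.109).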

How the data were processed

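Per the labels and the study's methods, Treg RNA from single animals was freed of ribosomal RNA, built into stranded libraries and read as 51 bp pairs, which the authors aligned to mm9 with STAR 2.6.0c and counted reads on Ensembl exons by strand with htseq-count 0.6.1. The deposited table gives each gene's signal in TPM, each library summing to 1000000, and the authors' log2 of that TPM plus the value of 1 read. Reads recovered from these columns were whole for 99.9977% of values (within 0.01). The authors' own table of edgeR fold changes and p-values was not used. No column of per-sample values was left without a sample (0 columns).

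TPM are not counts, so limma 3.58.1 (R 4.3.3) with a mean-variance trend was fitted to log2(scaled TPM + 1) over all 12 libraries by group. Fold changes of low genes are understated on this scale. Scaling was an unweighted trimmed mean of M-values (30% of M and 5% of A trimmed). Genes reaching a mean of 5 TPM in any group were tested (13318), because receptor genes silent in Treg had a 95th percentile of up to 2.32 scaled TPM, and p-values were adjusted by Benjamini-Hochberg per comparison. Alternatives with a lower filter recomputed the factors, and 2 added after seeing the data kept them. Ratios were tested by exact permutation (scipy 1.17.1). The code was tested on simulated data. All 9 chains are named, as are Ikzf1 and, for each chain, the 2 genes with the highest Pearson r. Of 4 related lists, genes called in a genotype comparison or in the difference of stimulation effects are named. For stimulation in WT only the largest calls per list were chosen. Other genes of these lists called for stimulation in WT or cKO are mostly not named. Marker genes named in the text were picked from fixed lists after their values were seen. The summed level of resting Treg markers is not reported here. The members and lists were chosen with earlier results of these data known. Positions come from GENCODE vM1 on NCBIM37, which placed 35859 of 36222 genes (99.0%). Genes on the opposite strand of a chain, such as Cerkl at Itga4, were separated by stranded counting. Replicates came from separate animals per the labels, and chi-square values showed none to be a duplicate. Reads carried no molecular identifiers, so counts of reads understate the error.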

Additional observations from a re-analysis of the deposited data

Results flagged for a closer look

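Of 44 genes tested among the 9 integrin chains and the 4 related lists, 2 responded differently to stimulation in WT and cKO Treg by a test of the difference itself, where 1.10% of all genes did. Itgb1 fell by 0.38 on the log2 scale in WT and by 1.24 in cKO, a difference of -0.85 (SE 0.13, limma adjusted p = 0.0136), from 138 to 163 scaled TPM down to 63.2 to 66.9 in cKO and from 87.8 to 103 down to 68.2 to 75 in WT. Itgb3 had the opposite pattern, a log2 change of 0.14 in WT and 1.28 in cKO, a difference of 1.14 (SE 0.19, limma adjusted p = 0.0192). Both differences lost their call with genes from 1 TPM and recomputed library factors, and were called with those genes and the factors kept (limma adjusted p = 0.0238 for Itgb1 and 0.043 for Itgb3). Groups of 3 were not searched for single libraries that stand apart in a gene.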

How the results depend on the processing

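With genes from 1 TPM, and with no filter, each with the library factors recomputed on those genes, 0 chains were called ex vivo, after stimulation or in the difference of stimulation effects, and the median of the 13318 genes after stimulation shifted by -0.28 and -0.27 on the log2 scale. In both cases the genes tested and the factors changed together. With the same genes tested and the factors kept, an alternative added after seeing the data, 2 chains were called ex vivo, 1 after stimulation (Itgb7 was at an adjusted p of 0.0503 and 0.0512) and 1 in the difference, and the call of Itgb5 ex vivo was lost (0.0838 and 0.0943). With TPM as deposited, which shifted that median by -0.26, 1 chain was called after stimulation and 0 in the difference. Voom on recovered reads called 4 chains ex vivo, 3 after stimulation and 3 in the difference. Fitting only the groups compared called 1 chain after stimulation. Leaving out 1 library gave 2 to 3 chains ex vivo, 1 to 3 after stimulation, 9 to 9 for stimulation in WT, 8 to 8 in cKO and 1 to 2 in the difference. The Itgae to Itga4 ratio, whose stimulation effect was -0.24 in WT and 0.06 in cKO, ranged from -0.428 to 0.072 (without WT ex vivo library 3) in WT and from -0.023 (without cKO ex vivo library 3) to 0.146 in cKO with 1 library left out. Over all genes, calls ranged from 56 (no filter, recomputed factors) to 1203 (voom) ex vivo, 68 (genes from 1 TPM, recomputed factors) to 1579 (quantile) after stimulation and 0 (the same) to 395 (voom) in the difference; with 1 library left out they ranged from 324 to 740, 398 to 1057 and 50 to 203. The causes of the other changes were not tested.

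Log2 changes that turned sign were small in all but a few cases. With genes from 1 TPM and recomputed factors they were -0.145 for Itgae and -0.256 for Itgav after stimulation, -0.121 for Itgb8 and -0.038 for Itga6 in the difference, and -0.188 for Dok1 and -0.225 for Icam1 on stimulation in cKO. With no filter and recomputed factors the same 6 values were -0.142, -0.252, -0.135, -0.054, -0.177 and -0.214. With deposited TPM they were 0.131 for Itga4 and 0.211 for Itgb2 ex vivo, -0.133 for Itgae and -0.242 for Itgav after stimulation, -0.33 for Itgb8 and -0.275 for Itga6 in the difference, and -0.013 for Icam1 on stimulation in cKO. With quantile normalization they were 0.026 for Itgb2 ex vivo, 0.037 for Itgb1 after stimulation, 0.031 for Itgb1 on stimulation in WT and 0.321 for Itgav on stimulation in cKO. Among markers they were 0.049 for Cd4, 0.401 for Cd3e, 0.1 for Trac, 0.483 for Tcf7 and 0.248 for Nr4a1 on stimulation in WT, and 0.242 for Ikzf2 and 0.083 for Cd3e in cKO. With 1 library left out, Itgb2 ex vivo ranged from -0.111 to 0.065 (above 0 without WT library 3, at 0.029, or cKO library 2), Itgav after stimulation from -0.135 (without cKO library 2) to 0.211, and Itgav on stimulation in cKO from -0.304 to 0.071 (without cKO library 3).

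Replicate numbers showed no pairing of the libraries. Deviations of same-numbered libraries correlated at -0.21 to 0.26, and those of differently numbered libraries at -0.19 to 0.22. These ranges cannot exclude that some ex vivo and stimulated libraries shared an animal. With the replicate number as a block, no member call changed (limma adjusted p = 0.00641 for Itgb1 and 0.0159 for Itgav ex vivo, 0.00883 for Itga4 and 0.0301 for Itgb7 after stimulation, and 0.0364 for Itgb1 in the difference), and the call of Itgb5 was lost (0.0763). Some marker calls were lost too. They were Prdm1 after stimulation (limma adjusted p = 0.0524), Nr4a1 ex vivo (0.0619) and on stimulation in WT (0.0599), and Klrg1 in the difference (0.0546).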
